A study of Mus musculus with 12 samples.

Results

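The nuclear genes of oxidative phosphorylation were taken as every gene whose symbol starts with Nduf, Uqcr, Atp5 or Cox followed by a digit from 4 to 8, together with Sdha, Sdhb, Sdhc and Sdhd, where the mean over all 12 libraries was at least 1 log2 CPM (read counts scaled to a common library size). Of 28116 gene symbols measured, 104 matched and 91 met the level. Of the 13 under the level, 8 carry -ps in their symbol, the mark of a pseudogene, and the other 5 were Ndufa11b, Ndufs6b, Cox6c2, Ndufb4c and Cox6b2. The level fell in a gap: Atp5l2-ps, just below it, had a mean of 0.15 log2 CPM, and the members nearest above it were Cox4i2 at 1.36 and Ndufa4l2 at 3.45. The members were grouped into 37 subunits of complex I (7 core and 30 accessory), 4 of complex II, 8 of complex III, 16 of complex IV, 16 of complex V, the 8 complex I assembly factors named Ndufaf, the supercomplex factor Cox7a2l and the ATP synthase coupling factor B gene Atp5s. One of the accessory subunits, Ndufb1-ps, also carries that mark and is typed as a bidirectional promoter lncRNA in GENCODE. Ndufa4 was placed in complex IV, where its protein is found. All 91 passed the filter used for testing.

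The respiratory chain sits in the inner mitochondrial membrane. Complex I (NADH dehydrogenase) and complex II (succinate dehydrogenase) pass electrons to ubiquinone, complex III (cytochrome bc1) passes them to cytochrome c, and complex IV (cytochrome c oxidase) passes them to oxygen. Complex V (ATP synthase) uses the resulting proton gradient to make ATP. Most subunits are encoded in the nucleus and a few in mitochondrial DNA, and the core subunits of complex I carry the flavin and iron-sulphur centres, while accessory subunits surround them. Complex IV has subunits with a form made mainly in heart and skeletal muscle (Cox6a2, Cox7a1, Cox8b) and a form made in most other tissues (Cox6a1, Cox7a2, Cox8a). Assembly factors help to build a complex and are absent from the finished enzyme.

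The libraries came from the tibialis anterior, a fast hindlimb muscle, of 4 month old mice of strain C57BL/10ScSn-Dmdmdx/J, which lack full-length dystrophin and serve as a model of Duchenne muscular dystrophy. All 4 groups carried this genotype and all received cardiotoxin, a toxin from snake venom that kills fibres, after which the muscle regenerates, so no group was uninjured or wild type. The injection also held either anti-miR-106b, which is directed at the microRNA miR-106b, or the control anti-miR-Scrambled, called scrambled here, and muscles were taken at 3 or 7 days, with 3 animals in each of the 4 groups. The design text once gives a different later day, but every sample label says 3 or 7. The sources used here do not state whether an animal gave more than 1 muscle, and the libraries were treated as independent. The level of miR-106b was not analysed here, so the extent of inhibition was not measured.

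The inhibited microRNA and 4 promoters of complex IV isoform genes are shown because the inhibitor is directed at the first and the isoform pairs gave the clearest contrast among the members. The mature microRNA lies on the minus strand at chr5:138165787-138165807 and has its seed, bases 2 to 8, in capitals. Sequences are from RefSeq on GRCm38.p6.
mmu-miR-106b-5p: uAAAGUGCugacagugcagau
The promoters are the 250 bases before the RefSeq transcription start, written 5′ to 3′ in the direction of transcription. Capitals mark matches, on either strand, to the letters of NRF1 (CGCANGCG), an ETS and GABP site (CCGGAAG), the estrogen-related receptor half-site (AAGGTCA), YY1 (AAGATGGCG), a GC box (GGGCGG), a myogenic E-box (CAGCTG) or a TATA box (TATAAA). Cox6a1 and Cox8a encode the general isoforms, and Cox7a1 and Cox8b the muscle isoforms.
Cox6a1, chr5:115348959-115349208, minus strand: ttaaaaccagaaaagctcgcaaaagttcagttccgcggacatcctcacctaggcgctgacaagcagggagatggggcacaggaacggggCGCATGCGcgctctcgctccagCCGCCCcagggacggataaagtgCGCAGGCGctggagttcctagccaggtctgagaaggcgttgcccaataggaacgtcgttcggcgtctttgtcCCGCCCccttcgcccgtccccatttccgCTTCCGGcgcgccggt
Cox8a, chr19:7217617-7217866, minus strand: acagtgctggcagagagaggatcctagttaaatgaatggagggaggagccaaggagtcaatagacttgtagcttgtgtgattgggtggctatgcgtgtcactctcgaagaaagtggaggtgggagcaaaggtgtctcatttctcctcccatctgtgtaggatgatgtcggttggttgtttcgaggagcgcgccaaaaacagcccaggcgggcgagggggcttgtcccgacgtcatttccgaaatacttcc
Cox7a1, chr7:30183921-30184170, plus strand: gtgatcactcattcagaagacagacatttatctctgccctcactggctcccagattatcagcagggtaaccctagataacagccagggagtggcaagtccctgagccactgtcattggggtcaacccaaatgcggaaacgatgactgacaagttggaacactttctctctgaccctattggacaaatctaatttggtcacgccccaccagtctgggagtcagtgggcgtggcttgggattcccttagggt
Cox8b, chr7:140900447-140900696, minus strand: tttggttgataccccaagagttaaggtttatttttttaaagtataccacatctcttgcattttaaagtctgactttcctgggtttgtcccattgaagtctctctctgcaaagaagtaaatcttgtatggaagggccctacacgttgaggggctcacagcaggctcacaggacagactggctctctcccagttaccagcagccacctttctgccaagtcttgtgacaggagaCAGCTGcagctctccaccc
Cox6a1 had matches to NRF1, the GC box and the ETS site, Cox8b had the E-box letters, and neither Cox8a nor Cox7a1 had any of these letters in the 250 bases. With the 50 bases after the start included, Cox8a also had the ETS letters and Cox8b the TATA letters. The general isoform Cox7a2, whose promoter is not printed, had the GC box letters alone.

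Across the members, 75 of 91 had a promoter in the RefSeq table, read as 300 bases from 250 before to 50 after the start. NRF1 letters were in 28 of the 75 (37.3%), against 18.5% of the 10820 tested genes with a promoter and 9.22% of all 27025 promoters of the table. Estrogen-related receptor letters were in 8 (10.7%) against 4.05% of tested genes, and YY1 letters in 8 (10.7%) against 3.41%. ETS letters were in 18 (24%) against 19.1%. The GC box was in 33 (44%) against 66.8%, the E-box in 6 (8%) against 18.5%, and the TATA letters in 6 (8%) against 9.53%. By role, the NRF1 letters were found in 9 of 14 complex V, 3 of 5 complex III and 2 of 3 complex II promoters. For complex I they were in 10 of 28 promoters of accessory subunits, 0 of 5 of core subunits and 3 of 7 of Ndufaf genes. In complex IV they were in 1 of 9 promoters of general subunits and 0 of 2 of muscle isoforms. NRF1 and E-box letters can read the same on both strands, and a promoter was counted once per motif. A match is a description of the letters only.

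The heptamer GCACTTT, complementary to the miR-106b seed, was in the annotated 3′ UTR of 3 of the 90 members that have one (3.33%), against 1936 of the 12931 tested genes with a 3′ UTR. The 3 were Ndufa10, Ndufb2 and Sdhd. Their day 3 differences (anti-miR-106b minus scrambled) were -0.36, -0.52 and -0.48 log2, each within the interquartile range of the members. The octamer GCACTTTA was in no member and in 4.45% of tested genes. The members' 3′ UTRs were short, with a median of 280.5 bases against 1370 for all tested genes.

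Depth was 2.89e+07 to 4.28e+07 reads per library, so 1 read was worth 0.0213 to 0.0356 CPM. The first principal component held 87.7% of the variance and ordered the groups anti-miR-106b day 3, scrambled day 3 and then the day 7 libraries, with both day 7 groups overlapping. The defining markers of the labelled tissue were present: all 10 genes of a mature fast fibre list were detected in every library, and they took 9.23 to 19.2% of reads. Of the listed markers of other cell types, the brown fat gene Ucp1 alone reached 0 reads in any library (6 of 12). Within a group, the members moved together from library to library. In the scrambled day 3 group, replicate 1 was the lowest for 77 of 91 members and replicate 2 the highest for 81. In the anti-miR-106b day 7 group, replicate 1 was the lowest for 85 and replicate 3 the highest for 87.

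Per kilobase of exon, complex III had the highest median level of the 5 complexes and complex I the lowest. On the log2 CPM per kilobase scale, the scrambled day 3 medians were 6.70 for complex I, 7.34 for complex II, 8.22 for complex III, 7.66 for complex IV and 7.49 for complex V. The 3 muscle isoforms of complex IV had a median of 9.65, and the Ndufaf assembly factors a median of 3.31, so the factors that build complex I were far below its subunits. The complexes kept this order in the scrambled day 7 group, with medians of 7.53 for complex I, 8.29 for complex II, 8.34 for complex V, 8.52 for complex IV and 9.04 for complex III. Each step between neighbours in this order was smaller than the range of subunit levels within any complex. In the scrambled day 3 group, subunits ranged from 3.51 to 8.66 in complex I and from 7.18 to 8.64 in complex III, the narrowest range. Exon length here is the union of all annotated exons, which lowers the value of genes with long rare transcripts.

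At day 3, most nuclear oxidative phosphorylation genes were lower with the miR-106b inhibitor than with the scrambled control, in every complex. Of 91 members, 79 fell, 3 rose and 9 were not called (limma, Benjamini-Hochberg adjusted p under 0.05), with a median of -0.47 log2 and an interquartile range of -0.53 to -0.35. The median over all tested genes was 0.01. With total-count scaling the members' median was -0.28, with 64 lower and 4 higher, while the median of all genes was 0.20, with 5182 called higher and 1372 lower. In the same comparison, 35.7% of the 14063 tested genes were called, 19.4% of them lower and 16.3% higher than in the control. Every scrambled library was above every anti-miR-106b library for 82 members, the reverse held for 4, and the groups of 5 overlapped, where 60.5% of all tested genes had groups without overlap (29.3% lower, 31.2% higher with the inhibitor). The 3 that rose were the general isoforms Cox6a1 and Cox8a and the Ndufa4 paralogue Ndufa4l2, and the muscle isoforms Cox7a1 and Cox8b had the most negative differences of all members. In bulk tissue, fewer cells of a type and less RNA per cell cannot be told apart.

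**Figure D1:**
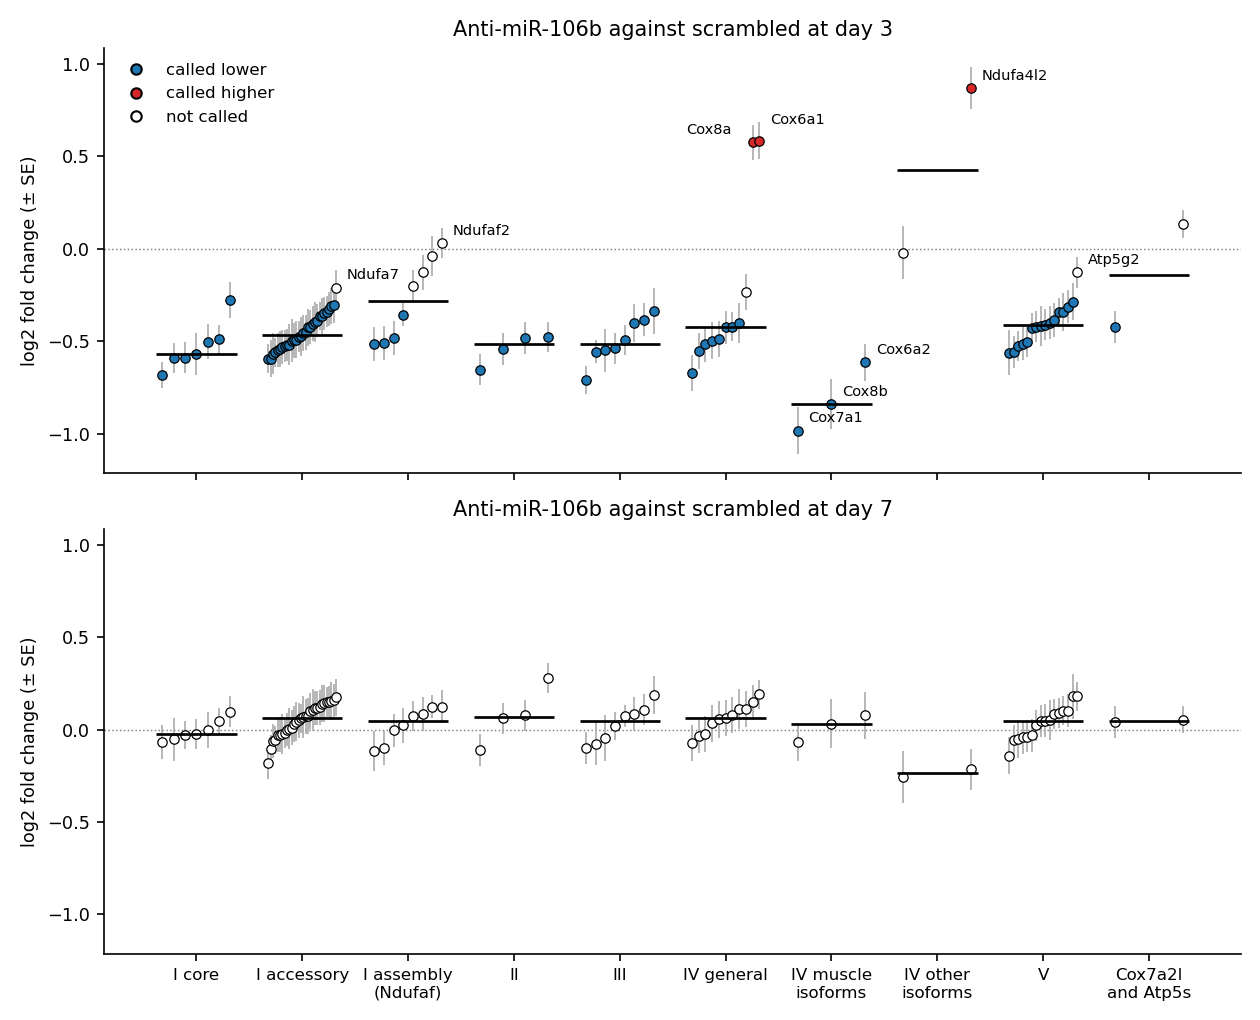
Log2 fold change (anti-miR-106b minus scrambled, y axis) with its standard error for each of the 91 members at day 3 and at day 7, grouped by role on the x axis; black bars are medians, blue points were called lower, red points higher and white points not called by limma. At day 3 nearly all points lie below 0. Of the 5 above it, Ndufa4l2, Cox6a1 and Cox8a were called, and Cox7a2l and Ndufaf2 were not. At day 7 all 91 points are white and the median is 0.05, where 0.064% of all tested genes were called.

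All 7 core subunits of complex I fell at day 3, with a median of -0.57 log2. Ndufs1, the largest iron-sulphur subunit (chr1:63143596-63176833, minus strand), had the most negative difference among them. Its 3 scrambled libraries had 8.11, 8.23 and 8.20 log2 CPM, and its 3 anti-miR-106b libraries had 7.55, 7.43 and 7.51. The groups did not overlap, and the gap between them was larger than the spread within either. The difference was -0.68 log2 (SE 0.07, adjusted p = 4.01e-05). Ndufs8, another iron-sulphur subunit, had the smallest core difference (-0.28, adjusted p = 0.0393). Of the 30 accessory subunits, 29 fell, with a median of -0.46 and differences from -0.59 for Ndufab1, the mitochondrial acyl carrier protein, to -0.21 for Ndufa7, which was not called (adjusted p = 0.111). Ndufa7 was called with library weights (adjusted p = 0.0221) and in a fit of the day 3 groups alone (adjusted p = 0.0249). Both settings called more of all tested genes at day 3 than the main fit, which called 2296 higher and 2726 lower. Library weights called 4413 higher and 4407 lower, and the fit of the day 3 groups 3842 and 3544. The largest weight, 7.86, was that of scrambled day 3 replicate 3.

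All 4 subunits of complex II, which is encoded wholly in the nucleus and also works in the citric acid cycle, fell at day 3 with a median of -0.51. Sdha, the flavoprotein that binds succinate (chr13:74322254-74350280, minus strand), had scrambled values of 9.21, 9.39 and 9.31 log2 CPM and anti-miR-106b values of 8.71, 8.61 and 8.63. Every scrambled library was above every anti-miR-106b library. Its difference was -0.65 log2 (SE 0.08, adjusted p = 0.000135). The iron-sulphur subunit Sdhb fell by 0.54, and the membrane anchors Sdhc and Sdhd each fell by 0.48.

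All 8 subunits of complex III fell, with a median of -0.51. The Rieske iron-sulphur protein Uqcrfs1 (chr13:30540308-30545362, minus strand) had 8.56, 8.71 and 8.62 log2 CPM in the scrambled libraries and 7.95, 7.87 and 7.94 in the anti-miR-106b libraries. The 2 sets did not overlap. Its difference was -0.71 log2 (SE 0.08, adjusted p = 4.44e-05), and that of the core protein Uqcrc2 was -0.55 (SE 0.06, adjusted p = 4.39e-05). The smallest difference was that of Uqcr11, a small accessory subunit, at -0.33 log2 (SE 0.12, adjusted p = 0.0499). That call was lost under 12 of 24 other settings, among them leaving out any 1 of the day 3 libraries.

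Of the 16 complex V subunits, 15 fell, with a median of -0.41. The subunits of the catalytic head were among them, Atp5a1 by 0.51 and Atp5b by 0.38. The c subunit, which forms the rotating ring, is made from 3 genes that encode the same mature protein. Atp5g1 (chr11:96068852-96075670, minus strand) had scrambled values of 8.64, 8.86 and 8.67 log2 CPM and anti-miR-106b values of 8.23, 8.34 and 7.90, with no overlap and a difference of -0.56 (SE 0.12, adjusted p = 0.00338). Atp5g3 fell by 0.56 as well. Atp5g2 (chr15:102662864-102672352, minus strand) had 6.17, 6.36 and 6.34 against 6.14, 6.25 and 6.10, values that overlap, and was not called (-0.13 log2, adjusted p = 0.246), except with library weights (-0.16, adjusted p = 0.00949). Library weights called more of all tested genes at day 3 than the main fit did. With total-count scaling the Atp5g2 difference was 0.063. The coupling factor B gene Atp5s, counted outside the complex, fell by 0.42.

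The complex I assembly factors were divided. Of 8 Ndufaf genes, 4 fell and 4 were not called, with a median of -0.28, where 19.4% of all tested genes were lower. Ndufaf5, which modifies a core subunit during assembly (chr2:140170649-140203689, plus strand), had 4.74, 5.08 and 4.83 log2 CPM in scrambled and 4.38, 4.40 and 4.34 in anti-miR-106b libraries. The groups did not overlap, and the difference was -0.51 (SE 0.09, adjusted p = 0.000990). Ndufaf6 fell by 0.51, Ndufaf1 by 0.48 and Ndufaf4 by 0.36. Those not called were Ndufaf8 at -0.20, Ndufaf7 at -0.13, Ndufaf3 at -0.04 and Ndufaf2 at 0.03. Ndufaf2 shares 65.6% of its exonic bases with a gene on the opposite strand, so its reads may include those of that gene. The complex II assembly factors, whose symbols the rule did not match, were read beside these: of Sdhaf1, Sdhaf2, Sdhaf3 and Sdhaf4, Sdhaf3 alone fell (-0.37 log2, adjusted p = 0.0194), and the median of the 4 was -0.17. The Sdhaf count is near the 19.4% of all tested genes that were lower. The difference between subunits and assembly factors was not tested.

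In complex IV the members divided by isoform. All 3 muscle isoforms fell, with a median of -0.84, and among the 11 general subunits 8 fell, 2 rose and 1 was not called. Cox7a1 (chr7:30184144-30186078, plus strand) had 8.11, 8.39 and 8.24 log2 CPM in scrambled libraries and 7.32, 7.19 and 7.28 in anti-miR-106b libraries. Every scrambled library was well above every anti-miR-106b library, and the difference was -0.98 (SE 0.13, adjusted p = 0.000142), or 1.98-fold lower. Its partner Cox7a2 (chr9:79755361-79759878, minus strand) had 7.26, 7.38 and 7.36 against 7.12, 7.19 and 6.99. These groups did not overlap either, but the difference of -0.23 was not called (adjusted p = 0.0770). It was called in 3 other settings, with library weights, in a fit of the day 3 groups alone, and without scrambled day 7 replicate 3. Each of these settings called more of all tested genes at day 3 than the main fit did.

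Cox8b and Cox8a moved in opposite directions at day 3. Cox8b (chr7:140898945-140900446, minus strand) had 8.08, 8.27 and 8.18 log2 CPM in scrambled libraries and 7.40, 7.49 and 7.12 in anti-miR-106b libraries. Cox8a (chr19:7215153-7217616, minus strand) had 6.75, 6.54 and 6.58 in scrambled libraries and 7.22, 7.26 and 7.12 in anti-miR-106b libraries. Neither gene's groups overlapped, and the order of the groups was reversed between them. Cox8b fell by 0.84 log2 (SE 0.13, adjusted p = 0.000439) and Cox8a rose by 0.58 (SE 0.10, adjusted p = 0.000614).

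The Cox6a pair behaved the same way. Cox6a2 (chr7:128205435-128206387, minus strand) had 9.00, 9.22 and 9.08 log2 CPM in scrambled libraries and 8.52, 8.58 and 8.36 in anti-miR-106b libraries, a difference of -0.61 (SE 0.10, adjusted p = 0.000592). Cox6a1 (chr5:115345642-115348981, minus strand) had 6.32, 6.21 and 6.19 in scrambled and 6.79, 6.94 and 6.76 in anti-miR-106b libraries, a difference of 0.59 (SE 0.10, adjusted p = 0.000628), or 1.50-fold higher. In both genes the groups did not overlap. Of the exonic bases of Cox6a2, 10.3% lie within another gene.

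The third member that rose was Ndufa4l2, a hypoxia-induced paralogue of Ndufa4 (chr10:127514967-127517154, plus strand). It had 3.20, 3.04 and 3.22 log2 CPM in scrambled and 3.97, 4.25 and 3.85 in anti-miR-106b libraries. The anti-miR-106b values all lay above the scrambled ones, with a difference of 0.87 (SE 0.11, adjusted p = 0.000137), or 1.83-fold higher. Ndufa4 itself fell by 0.50 (SE 0.10, adjusted p = 0.00197). Cox4i2, the hypoxia-linked form of subunit 4, had overlapping groups and a difference of -0.02 (adjusted p = 0.922), while the general form Cox4i1 fell by 0.42 (SE 0.09, adjusted p = 0.00286). Cox7a2l, which joins complexes III and IV in supercomplexes, was not called at 0.13.

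**Figure D2:**
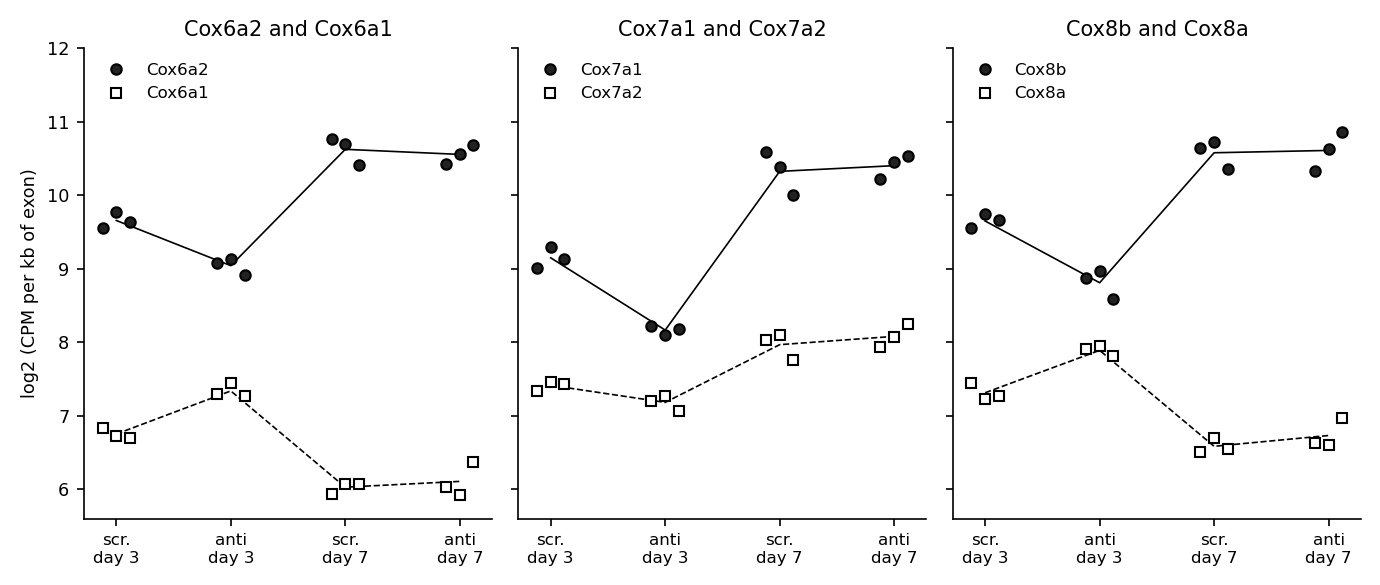
Level in each library (y axis, log2 CPM per kilobase of exon) of the muscle isoform (filled circles) and the general isoform (open squares) of the Cox6a, Cox7a and Cox8 pairs, for the 4 groups on the x axis (scr., scrambled; anti, anti-miR-106b); lines join group means. In each pair the 2 isoforms are nearest to each other in the anti-miR-106b day 3 group and farthest apart at day 7, where the muscle isoform is 83.3 to 96.0% of the pair.

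The share of the muscle isoform in its pair was lowest in the anti-miR-106b day 3 group for all 3 pairs. Per length, Cox6a2 was 88.2% ± 1.20 (SD, n = 3) of Cox6a2 plus Cox6a1 in the scrambled day 3 group, 76.5% ± 0.839 in the anti-miR-106b day 3 group, 96.0% ± 0.658 in the scrambled day 7 group and 95.6% ± 0.475 in the anti-miR-106b day 7 group. Cox8b was 83.4% ± 2.00, 65.4% ± 1.91, 94.1% ± 0.672 and 93.6% ± 0.671 of its pair in the same order. Cox7a1 was 76.9% ± 1.06, 66.4% ± 2.30, 83.6% ± 1.55 and 83.3% ± 0.475. The day 3 groups stood further apart than their SDs in each pair, and the day 7 groups lay within theirs.

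The log2 ratio of 2 genes in a library does not depend on how the library was scaled, and it was tested by an exact, two-sided permutation test. Days were permuted within arms and arms within days, with 400 arrangements and 0.005 as the smallest p they can give, and p was adjusted over 10 tests. The ratio was higher at day 7 than at day 3 by 2.22 log2 for Cox6a2 over Cox6a1, by 0.98 for Cox7a1 over Cox7a2 and by 2.31 for Cox8b over Cox8a, each with an exact p of 0.005 (adjusted 0.0125). Over both days, the difference of the ratio between anti-miR-106b and scrambled was -0.67 for the Cox6a pair (exact p = 0.025, adjusted 0.0417), -0.77 for the Cox8 pair (exact p = 0.02, adjusted 0.04) and -0.39 for the Cox7a pair (exact p = 0.05, adjusted 0.0714), the last of which missed the threshold. The differences were -1.20, -1.42 and -0.75 at day 3 and -0.15, -0.12 and -0.04 at day 7. Within a day, 3 against 3 libraries cannot give a p below 0.1. Without scrambled day 7 replicate 1, or without anti-miR-106b day 7 replicate 1 or 3, the Cox6a and Cox8 arm tests did not pass the threshold.

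The ratio of Ndufa4l2 to Ndufa4 went the other way with time: it differed by -1.36 log2 between day 7 and day 3 (exact p = 0.005, adjusted 0.0125). With anti-miR-106b it was 0.56 higher over both days (exact p = 0.09, adjusted 0.1), at 1.37 on day 3 and -0.25 on day 7. The ratio of Cox4i2 to Cox4i1 differed by -0.26 between days (exact p = 0.08, adjusted 0.1). With 1 CPM added, that difference was -0.44 (exact p = 0.005, adjusted 0.01). Between arms it differed by 0.09 over both days (exact p = 0.385), which averages 0.40 at day 3 and -0.22 at day 7, each without overlap of the groups.

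At day 7, no member was called as different between the arms. None of the 91 was called by limma, and 4 had an unadjusted p under 0.05. In this comparison 0.064% of all tested genes were called (0.0569% lower, 0.00711% higher), and 11.2% had an unadjusted p under 0.05. These calls depended on single libraries: without scrambled day 7 replicate 1, 216 genes were called higher and 241 lower, and without replicate 2 of anti-miR-106b at day 7, 58 higher and 12 lower. The members' median was 0.05 log2, with values from -0.26 for Cox4i2 (adjusted p = 0.535) to 0.28 for Sdhd (SE 0.08, adjusted p = 0.227). The groups overlapped for 89 members, 1 had the anti-miR-106b libraries higher and 1 lower without overlap, against 10.9% of all tested genes without overlap (5.18% higher, 5.69% lower). The medians of complexes I, II, III, IV and V were 0.04, 0.07, 0.05, 0.04 and 0.05.

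The members with the largest day 3 differences in each direction were not called at day 7. Cox7a1 had 9.68, 9.48 and 9.11 log2 CPM in scrambled and 9.32, 9.54 and 9.64 in anti-miR-106b libraries, with overlapping groups and a difference of 0.08. Ndufa4l2 had 3.35, 3.60 and 3.32 in scrambled and 3.16, 3.31 and 3.16 in anti-miR-106b libraries, a difference of -0.21 (adjusted p = 0.497), with the anti-miR-106b libraries below the scrambled ones. Sdhd had 9.08, 8.84 and 8.83 in scrambled and 9.10, 9.18 and 9.31 in anti-miR-106b libraries. Its groups did not overlap, and it was called without scrambled day 7 replicate 1 (0.36, adjusted p = 0.0241). The spread within groups was wider at day 7: the median SD over members was 0.08 in the scrambled and 0.06 in the anti-miR-106b group at day 3, and 0.15 and 0.14 at day 7.

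From day 3 to day 7 the members rose in both arms. In the scrambled arm 88 rose, 2 fell and 1 was not called, with a median of 0.79 log2, where 68.2% of all tested genes were called (32.9% higher, 35.3% lower). In the anti-miR-106b arm 87 rose, 3 fell and 1 was not called, with a median of 1.32, where 78.7% of all tested genes were called (37.9% higher, 40.8% lower). The members that fell in both arms were Cox6a1 and Cox8a, and Ndufa4l2 fell in the anti-miR-106b arm alone. The all-gene medians were -0.0034 and -0.02. With total-count scaling the members' medians were 0.38, with 79 higher and 4 lower, and 0.70, with 81 higher and 5 lower. The all-gene medians were then -0.42, with 1519 genes called higher and 8724 lower, and -0.67, with 2150 higher and 9757 lower. No member's day groups overlapped in either arm, with 89 higher and 2 lower at day 7 in the scrambled arm, where 72.4% of all tested genes did not overlap (34.9% higher, 37.5% lower), and 88 higher and 3 lower in the anti-miR-106b arm, where 81.1% did not (39.5% higher, 41.7% lower).

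In the scrambled arm the median rise was 0.81 log2 for complex I, 0.86 for complex II, 0.87 for complex III, 0.79 for complex IV, 0.78 for complex V and 0.59 for the Ndufaf genes. Cox7a1 had the largest value (1.18, adjusted p = 2.52e-06), followed by Ndufc1, an accessory subunit of complex I, at 1.02. Uqcrc2 rose by 0.91 (adjusted p = 3.86e-08). Cox8a fell by 0.73 and Cox6a1 fell by 0.72. Ndufaf2, at 0.16, was not called (adjusted p = 0.0849).

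In the anti-miR-106b arm the medians were 1.34 for complex I, 1.38 for complex II, 1.41 for complex III, 1.24 for complex IV, 1.25 for complex V and 0.86 for the Ndufaf genes. Cox7a1 rose by 2.24 log2 (adjusted p = 2.15e-09), or 4.71-fold, and Cox8b by 1.80, or 3.48-fold. Uqcrfs1 rose by 1.70 (adjusted p = 4.84e-10) and Ndufs1 by 1.64 (adjusted p = 3.59e-10). Cox6a1 fell by 1.23 (adjusted p = 4.87e-08), Cox8a by 1.16 (adjusted p = 7.28e-08) and Ndufa4l2 by 0.81 (adjusted p = 1.16e-05). Ndufa4l2 rose by 0.27 in the scrambled arm (adjusted p = 0.0435), a call that was lost under 11 other settings, and its value was -0.14 with total-count scaling.

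**Figure D3:**
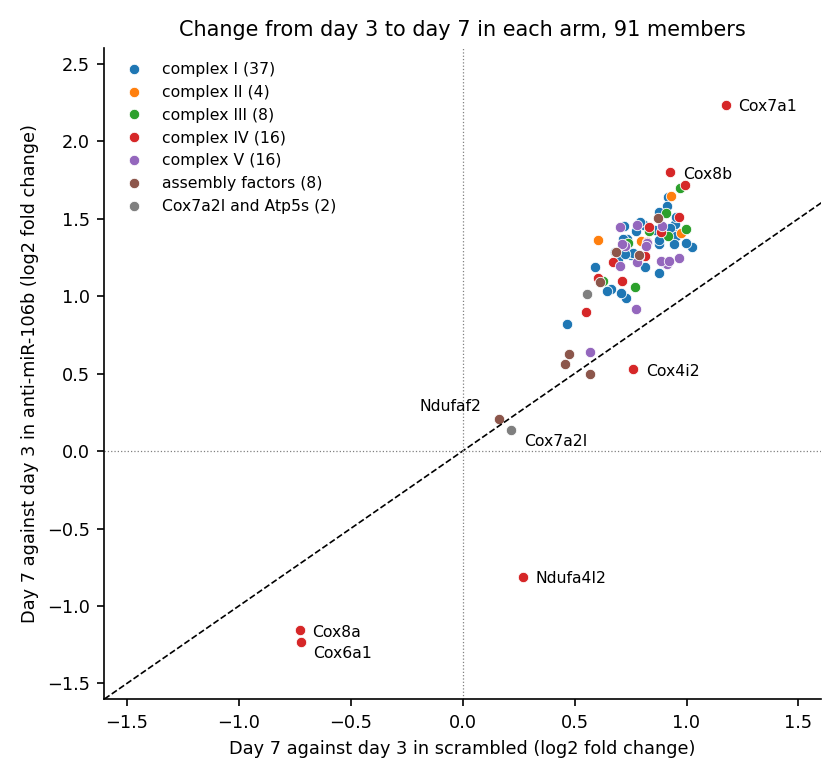
Log2 change from day 3 to day 7 of each member in the scrambled arm (x axis) against the anti-miR-106b arm (y axis), coloured by complex, with the dashed line marking equal change. Of the 91 members, 85 lie above the line, and Cox6a1, Cox8a and Ndufa4l2 lie apart below it, with negative changes in the anti-miR-106b arm.

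The arm difference itself changed between the days for most members. By the limma test of that change, 63 members had a more positive difference at day 7 than at day 3, 3 a more negative one and 25 were not called, with a median of 0.51 log2. Of all tested genes, 22.3% were called, 13.2% more positive and 9.07% more negative, with a median of -0.0027. With total-count scaling the members' median was 0.29, with 46 more positive and 4 more negative, while that of all genes was -0.23, with 866 more positive and 3495 more negative. The called members were 27 of 37 in complex I, 4 of 4 in complex II, 6 of 8 in complex III, 14 of 16 in complex IV, 10 of 16 in complex V and 4 of 8 among the Ndufaf genes, and Atp5s. The largest positive changes were those of Cox7a1 (1.06, adjusted p = 0.00199), Cox8b (0.87, adjusted p = 0.00654) and Sdhd (0.76, adjusted p = 0.00125). The negative ones were Ndufa4l2 (-1.08, SE 0.16, adjusted p = 0.000984), Cox6a1 (-0.51, adjusted p = 0.0195) and Cox8a (-0.43, adjusted p = 0.0376). The Cox8a call was lost under 11 of 24 other settings, the Cox6a1 call when, at day 3, scrambled replicate 3 or the second anti-miR-106b library was left out, and with the replicate number as a block the count was 54 rather than 66. The 5 comparisons share libraries, so their values stand side by side and are no independent evidence of each other.

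As a share of all reads, the 91 members took 2.82% ± 0.0630 (SD, n = 3) in the scrambled day 3 group, 2.33% ± 0.0123 in the anti-miR-106b day 3 group, 3.77% ± 0.205 in the scrambled day 7 group and 3.77% ± 0.242 in the anti-miR-106b day 7 group. Complex V took the largest part, with 1.02, 0.859, 1.37 and 1.37% of reads, and complex II the smallest, with 0.177, 0.137, 0.243 and 0.248%. The mitochondrially encoded subunits took more reads than all the nuclear members together, at 7.47% ± 0.0918, 4.69% ± 0.0103, 9.26% ± 1.23 and 9.93% ± 0.410. Of these 13 genes, 6 had 0 to 50 reads per library, so the mitochondrial sum and its ratio rest almost wholly on the other 7. Both sums were lowest in the anti-miR-106b day 3 group, and the log2 ratio of the nuclear to the mitochondrial sum was -1.41 in the scrambled and -1.01 in the anti-miR-106b group at day 3, and -1.29 and -1.40 at day 7.

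**Figure D4:**
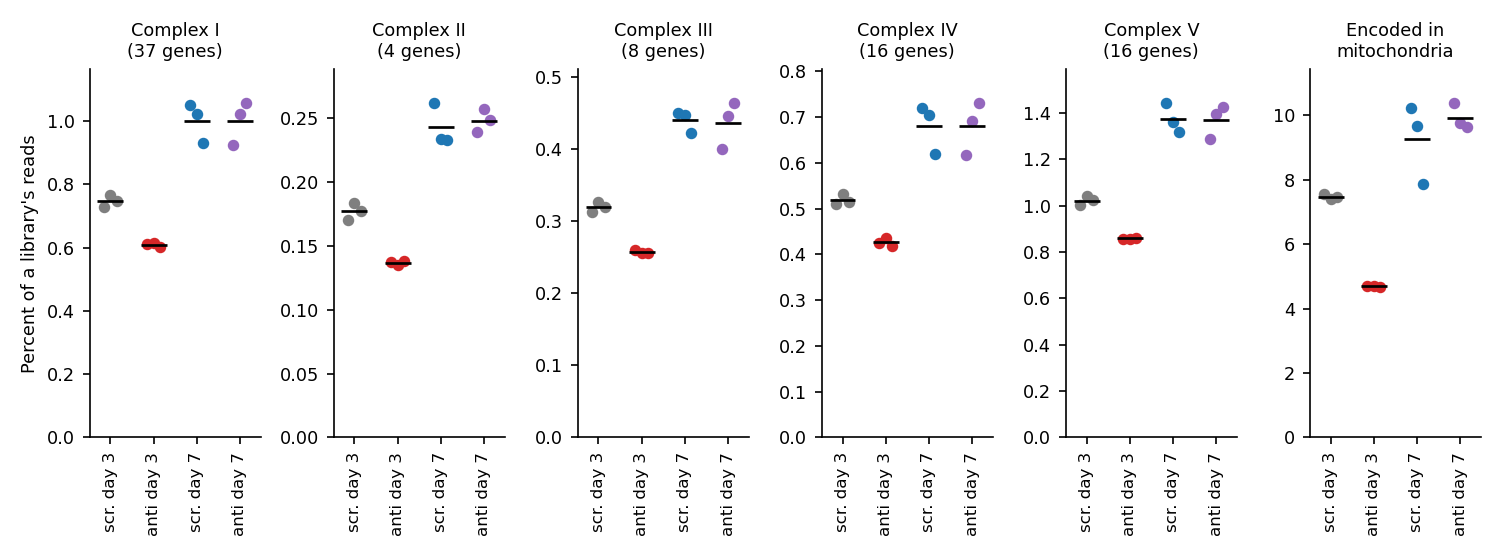
Percent of each library's reads (y axis) taken by the nuclear subunits of complexes I to V and by the mitochondrially encoded subunits, by group on the x axis (scr., scrambled; anti, anti-miR-106b); points are libraries and bars are group means of 3. The anti-miR-106b day 3 libraries are lowest in every panel, at 4.69% for the mitochondrial subunits against 7.47% in the scrambled day 3 group.

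Of the 13 mitochondrially encoded subunit genes, 7 had over 100 CPM in every library (mt-Nd1, mt-Nd2, mt-Nd4, mt-Nd5, mt-Nd6, mt-Cytb and mt-Co1), and all 7 fell with anti-miR-106b at day 3, with differences of -0.95 to -0.60 log2 and a median of -0.89. None was called at day 7, and all 7 rose from day 3 to day 7 in both arms, with medians of 0.68 and 1.69. Of all tested genes, 19.4% were lower at day 3 and 0.064% were called in either direction at day 7. Between days, 32.9% of them rose in the scrambled arm and 37.9% in the anti-miR-106b arm. The other 6 mitochondrially encoded subunit genes had 0 to 50 reads per library and were not read singly.

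Other genes that help to build the complexes were read from a list. Of 38 such assembly genes, 18 fell and none rose at day 3, with a median of -0.22, where 19.4% of all tested genes were lower. From day 3 to day 7, 36 rose in the scrambled arm, where 32.9% of all tested genes were higher, and 35 in the anti-miR-106b arm, where 37.9% were. Among those that fell were Ecsit (-0.50) for complex I, Ttc19 (-0.59) and Lyrm7 (-0.70) for complex III, Taco1 (-0.60) and Coa5 (-0.48) for complex IV and Atpaf1 (-0.66) for complex V. Atpif1, the inhibitor of ATP synthase, which was listed with the complex V factors, rose (0.35, adjusted p = 0.0419).

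For the next counts, the day 3 shares over all tested genes were 19.4% lower and 16.3% higher. The electron carriers and substrate transporters held another isoform contrast. Of 9, 7 fell, among them cytochrome c (Cycs, -0.52), the ubiquinone synthesis factor Coq9 (-0.63) and the muscle adenine nucleotide carrier Slc25a4 (-0.81), while the general carrier Slc25a5 rose by 0.36. From day 3 to day 7 Slc25a4 rose by 1.03 in the scrambled and 1.93 in the anti-miR-106b arm, and Slc25a5 fell by 1.22 and 1.44. All 11 citric acid cycle genes fell at day 3, with a median of -0.55, including citrate synthase (Cs, -0.62). Of 12 genes of mitochondrial membranes and import, 8 fell, with Mfn2 at -0.74 and Vdac1 at -0.65, and Tomm40 rose by 0.29.

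Of 13 regulators of mitochondrial genes, 4 fell and 1 rose at day 3, a share of called genes near the 35.7% of all tested genes. The coactivator Ppargc1a had 4.19 ± 0.09 log2 CPM (SD, n = 3) in the scrambled and 3.50 ± 0.0012 in the anti-miR-106b group, a difference of -0.70. The estrogen-related receptor Esrra (-0.49), the mitochondrial transcription factor Tfb2m (-0.53) and Tfam (-0.27) fell, and the coactivator Pprc1 rose by 0.31. The nuclear respiratory factor Nrf1, whose letters are in 37.3% of the members' promoters, was not called at 0.10 (adjusted p = 0.382). None of the 13 was called at day 7, where 0.064% of all tested genes were called. From day 3 to day 7 Ppargc1a rose by 1.12 in the scrambled and 1.94 in the anti-miR-106b arm.

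The marker lists are given beside these differences, with 16.3% of all tested genes called higher and 19.4% lower at day 3. All 10 mature fast fibre markers fell with anti-miR-106b at day 3, and their summed reads were 12.4 to 14.0% in scrambled and 9.23 to 9.65% in anti-miR-106b libraries. At day 7 they were 16.7 to 19.2% and 16.2 to 17.4%. The log2 ratio of the members' summed CPM to that of these markers was -2.23 in the scrambled and -2.02 in the anti-miR-106b group at day 3. Of 6 regenerating fibre markers 3 rose at day 3, and all 6 summed to 0.253 to 0.343% of reads in scrambled and 0.482 to 0.502% in anti-miR-106b libraries. Of 10 macrophage markers 5 rose, and all 10 summed to 0.360 to 0.372% and 0.591 to 0.621%. Fibroblast and progenitor markers rose in 2 of 7, endothelial markers in 2 of 6, and pericyte and smooth muscle markers in 2 of 6 with 1 lower. Of 4 tested adipocyte markers 1 fell, and of 5 erythrocyte markers 1 rose, and such small counts are near the shares over all tested genes. Their part in the members' differences was not tested.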

How the data were processed

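Bulk RNA-seq of 12 tibialis anterior muscles was used (4 groups of 3). The authors deposited 1 table of log2 CPM per gene. The submitters' processing notes name the build mm10, the aligner STAR, the counter featureCounts, limma 3.34.9 and edgeR 3.20.9, with FastQC 0.72 and Trim Galore 0.4.3.1 for read quality, while settings, strand and annotation are not given in the sources used here. Steps between the low values gave whole reads for 100% of values (tolerance 0.001). These reads gave the depth of 2.89e+07 to 4.28e+07 per library and served the total-count and voom alternatives.

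Genes reaching 1 CPM in at least 3 libraries (14063) were tested with limma 3.58.1 in R 4.3.3 (trend, 4 group means, two-sided, Benjamini-Hochberg per comparison, threshold 0.05, 8 residual degrees of freedom), after a check on simulated data. A limma p-value sets a difference against the spread between libraries within groups, estimated over the 4 groups together. Positions and exon lengths are from GENCODE M21, which holds all 91 members. 13 members share over 10% of their exonic bases with another gene, and such reads may be shared.

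The members and lists were chosen with earlier results of these data known. Members named with values are the isoform pairs, the extremes and the 4 smallest p of each comparison, the extremes of each complex, every member called against the majority and those next to the level; of other lists, up to 3 genes with the smallest day 3 p. Ndufs8, Ndufab1, Cox7a2l, Atp5s, Atp5a1, Atp5b, Atp5g3, Sdhc, Ndufa10, Ndufb2, the other Ndufaf genes, Nrf1, Tfam, Pprc1, Slc25a5, Tomm40 and Sdhaf1 to Sdhaf4 were added after their values were seen. Alternatives changed the scaling, the filter, the added CPM, the prior, the weights, the samples and the block. Voom, a fit without 2 day 7 libraries (scrambled replicate 1 and anti-miR-106b replicate 2, the highest on the first principal component) and 2 further isoform pairs were chosen after seeing the data.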

Additional observations from a re-analysis of the deposited data

Results flagged for a closer look

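The arm difference (anti-miR-106b minus scrambled) changed from day 3 to day 7, by the limma test of that change, for 66 of 91 members. Of all tested genes, 22.3% were called, 13.2% more positive and 9.07% more negative. Among the named subunits of complexes I to III the change was 0.72 log2 for Ndufs1, 0.73 for Ndufb3, 0.71 for Sdha, 0.43 for Sdhb, 0.76 for Sdhd, 0.63 for Uqcrc2 and 0.73 for Uqcrfs1. In complex IV it was 0.39 for Cox4i1, 0.55 for Cox6a2, 1.06 for Cox7a1, 0.87 for Cox8b and 0.53 for Ndufa4, and it was negative for Cox6a1 at -0.51, Cox8a at -0.43 and Ndufa4l2 at -1.08. It was 0.74 for Atp5g1 in complex V, and 0.60 and 0.63 for the assembly factors Ndufaf5 and Ndufaf6. The Cox4i1 call was lost under 14 of 24 other settings. The Sdhb call was lost with total-count scaling, with the replicate number as a block, and without scrambled day 3 replicate 2 or 3 or anti-miR-106b day 7 replicate 2.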

How the results depend on the processing

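Over all alternatives, 68 to 87 members were called at day 3, 0 to 1 at day 7, 83 to 91 and 86 to 91 between days in the scrambled arm and the arm with anti-miR-106b, and 50 to 77 for the change of the arm difference. Calls over all tested genes moved with the setting too. At day 3 the main fit called 2296 genes higher and 2726 lower of 14063. Library weights, with 87 members, called 4413 higher and 4407 lower. Total-count scaling, with 68 members, called 5182 higher and 1372 lower of 14198. Between days in the scrambled arm, total-count scaling called 1519 higher and 8724 lower (83 members), and library weights 5122 and 5489 (91 members). In the anti-miR-106b arm, total-count scaling called 2150 and 9757 (86 members), and quantile normalization 6430 and 4847 (91 members). For the change, total-count scaling called 866 more positive and 3495 more negative (50 members). Without anti-miR-106b day 7 replicate 1, these were 1627 and 1283 (77 members). Of the 79 calls lower at day 3, 63 were kept in every setting, as were all 3 higher ones. The one day 7 call, without scrambled day 7 replicate 1 and without both day 7 libraries named in the methods, was Sdhd. Of all tested genes at day 7, the first of those fits called 216 higher and 241 lower, and the second 350 and 192. The main fit called 1 higher and 8 lower. With 1 library left out, the arm difference of the Cox6a ratio lay between -0.74 and -0.62, against -0.67 with all libraries. That of the Cox8 ratio lay between -0.82 and -0.72, against -0.77. Each lost its call when any of 3 day 7 libraries was left out. The cause was not tested.

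With total-count scaling the fourth member higher at day 3 was Cox7a2l, at 0.32. It reversed Atp5g2 (0.063) and Cox4i2 (0.17) at day 3, Cox4i2 (-0.10) and Ndufaf2 (-0.42) in the anti-miR-106b arm, Ndufa4l2 (-0.14) and Ndufaf2 (-0.24) in the scrambled arm, and Atp5g2 (-0.15) for the change. Quantile normalization gave -0.018 for that Atp5g2 change, and leaving out 1 library gave -0.00014 (anti-miR-106b day 7 replicate 3) to 0.15. At day 3, Cox4i2 was 0.055 with library weights and -0.063 to 0.040 with 1 library left out, above 0 without anti-miR-106b replicate 3 or scrambled replicate 2 (0.013). Ndufaf2 was -0.0016 to 0.085 with 1 library left out, below 0 without anti-miR-106b replicate 2 or scrambled replicate 3 (-0.0013). The Ndufaf3 change was -0.19 to 0.016, above 0 without anti-miR-106b day 7 replicate 1 or day 3 replicate 2 (0.0068).

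With the replicate number as a block, 80 members were called at day 3, 0 at day 7, 89 in each arm between days and 54 for the change. Of all tested genes, the block fit called 2147 higher and 2641 lower at day 3 and 0 at day 7. Between days it called 4361 higher and 4749 lower in the scrambled arm, and 5196 and 5594 in the anti-miR-106b arm. For the change it called 1702 more positive and 1135 more negative. Same-numbered libraries of opposite arms within a day had residual correlations of -0.042 to 0.144. Such values cannot tell whether these libraries came from the same animal. Voom on the recovered reads called 82 members at day 3, 0 at day 7 and 71 for the change. Of all tested genes, voom called 3074 higher and 2769 lower at day 3, and 4 higher and 11 lower at day 7. For the change it called 1893 more positive and 1322 more negative. A negative binomial count test was not run. The smallest p of 3 against 3 libraries limits every single-day ratio.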
